A study of Mus musculus with 6 samples.

Results

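The collagen genes were taken as all probe sets whose single annotated gene carries a collagen chain symbol of the form Col, number, a, number. This gave 82 of the 45037 probe sets of the array that are not controls, for 42 genes: 21 probe sets for 11 fibrillar genes, 15 for 8 basement membrane genes (the type IV chains with Col15a1 and Col18a1) and 46 for 23 other genes. RNA came from the GFP-positive motoneuron region of the left and of the right cervical spinal cord of mouse embryos of the HB9::GFP transgenic line, taken at E11.5. The left group and the right group hold 3 pools each, 1 pair from each of 3 embryos of a single litter, with no treatment and no other allele named in the labels. GFP is driven by the promoter of HB9 (Mnx1), a homeodomain transcription factor of motoneurons, and regions were cut out of frozen sections by laser, so that a pool also holds whatever lay among the marked cells. The comparison of right with left asks whether motoneurons carry a molecular difference between the sides before they innervate the diaphragm.

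Collagens are extracellular proteins built of 3 chains wound into a triple helix. Fibrillar collagens (types I, II, III, V, XI and relatives) assemble into the fibrils of connective tissue and cartilage and are made mainly by fibroblasts, mesenchyme and chondrocytes. Type IV chains form the sheet-like network of basement membranes, which surrounds blood vessels, the spinal cord and muscle fibres. The others include the beaded filaments of type VI, proteins that sit on the surface of fibrils, and transmembrane collagens, some of which are made by neurons.

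Expression is given as the MAS5 signal, a linear intensity, and the ratio log2(R/L) was taken within each embryo. A probe set was tested where its highest signal in the 6 pools reached 200, a limit taken from the methods of the study. Of the 82 collagen probe sets, 29 passed, for 23 of the 42 genes: 11 fibrillar (8 genes), 4 basement membrane (3 genes) and 14 others (12 genes). The other 53 probe sets, and with them 19 genes, stayed under the limit in every pool. The motoneuron genes set the frame of the sample. All 11 on the list were tested, and their median log2(R/L) was −0.04. The fold rule described below was met by 0 of them, against 2.08% of all tested genes on the right and 1.29% on the left. Mnx1 itself read 5219, 4160 and 3844 in the left pools of embryos 1, 2 and 3 and 5139, 4029 and 3520 in the right pools.

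The right pool of embryo 1 stood apart in its collagen signal. It held 26 collagen probe sets at or above 200, against 10 in its left partner, 12 and 13 in the left and right pools of embryo 2, and 12 and 14 in those of embryo 3. The summed signal of the 29 tested probe sets was 6394, 6471 and 7569 in the left pools of embryos 1, 2 and 3 and 26940, 8839 and 7405 in the right pools. Across the whole array, 17246 to 18061 probe sets were at the limit in the 6 pools, and median signals ran from 99.6 to 118. The authors had normalized the arrays, which can bring such values together. Pooled tissue cannot separate the number of cells of a type from the RNA per cell: a lower value may be either.

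**Figure D1:**
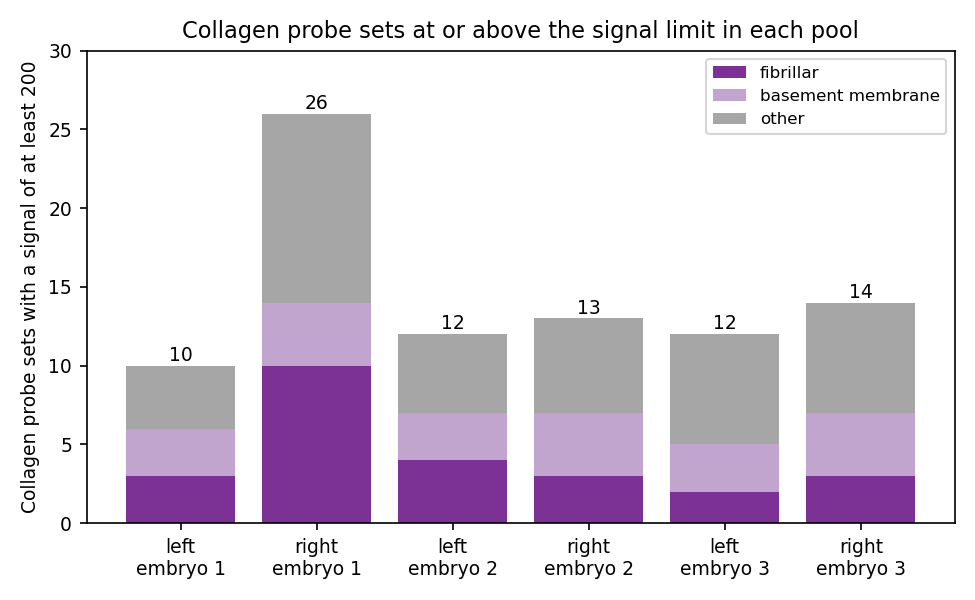
Number of collagen probe sets with a signal of at least 200 (vertical axis) in each of the 6 pools, split into fibrillar, basement membrane and other collagens. The right pool of embryo 1 holds 26, of which 10 are fibrillar, and the other 5 pools hold 10 to 14.

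In embryo 1 the added probe sets were mostly fibrillar and other collagens, as the plot of probe sets at the limit shows. Fibrillar probe sets at the limit numbered 3, 4 and 2 in the left pools and 10, 3 and 3 in the right pools of embryos 1, 2 and 3. Probe sets of the other class numbered 4, 5 and 7 in the left pools, against 12, 6 and 7 in the right ones. Basement membrane probe sets were 3 on each left side and 4 on each right side. The limit therefore bears on what was tested: 13 of the 29 collagen probe sets reached it on the right only (7 fibrillar, 1 basement membrane and 5 others), 10 of them in no pool but the right one of embryo 1. A further 2 reached it on the left only and 14 on both sides. Among all 21853 tested probe sets, 6.85% reached it on the right only and 5.52% on the left only. A probe set that passed through 1 pool had to differ in that pool, so the counts and medians below describe the tested members and are no evidence for a difference by themselves.

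Right enrichment was called by the fold rule of the methods, which asks that every embryo differ the same way and that the change pass 0.58 on the log2 scale (1.5-fold) both in the mean and in 2 or more of the embryos. Of the 29 tested collagen probe sets, 8 met it on the right (27.59%; 7 genes), against 524 of all tested probe sets (2.4%), and 0 on the left, against 338 (1.55%). With each gene represented by its brightest tested probe set, 7 of 23 collagen genes met it on the right and 0 on the left, against 2.08% and 1.29% of all 10539 tested genes. The 7 genes were Col1a2, with 2 probe sets, and Col5a1 among the fibrillar collagens, Col4a1 and Col18a1 of the basement membrane, and Col6a1, Col25a1 and Col26a1 of the rest. Of the 8 probe sets, 4 had reached the limit on the right only and 4 on both sides. With embryo 1 left out, 19 collagen probe sets were tested and the rule, applied to embryos 2 and 3, was met on the right by 1, Col6a1, and on the left by 1, Col19a1. The background was then 0.695% on the right and 0.786% on the left.

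No collagen passed the test that weighs the difference against a variance, drawn from the embryos and in part from the other probe sets. In limma with embryo as a term, 0 of 29 had an adjusted p under 0.05, and 0 of all 21853 did (0%). Without adjustment, 6 collagen probe sets had p under 0.05 with right higher, where 1.92% of all tested probe sets (419) did, and 0 with left higher, where 1.48% (323) did. The smallest collagen p by limma was 0.002419 (Col1a2), with an adjusted p of 0.974.

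The embryos were not alike. In embryo 1 all 29 tested collagen probe sets were higher on the right and 24 of them by more than 0.58, whereas 51.8% of all tested probe sets were higher on the right and 19% by more than 0.58. In embryo 2, 16 of 29 were higher on the right, 12 of them by more than 0.58, and 5 were lower by more than 0.58 (52.4% of all tested probe sets were higher). In embryo 3, 16 of 29 were higher, 5 of them by more than 0.58, and 4 were lower by more than 0.58 (49.8% of all). A higher signal on the right in all 3 embryos was seen for 9 of 29, against 12.7% of all, and on the left for 0. The 53 untested probe sets, whose signals are all under 200, had right above left in 34, 33 and 27 cases in embryos 1, 2 and 3, and met the fold rule in 10 cases on the right (18.9%) and 1 on the left. Among all 23184 untested probe sets the rule was met by 9.84% on the right and 5.86% on the left, more often than among the tested ones.

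**Figure D2:**
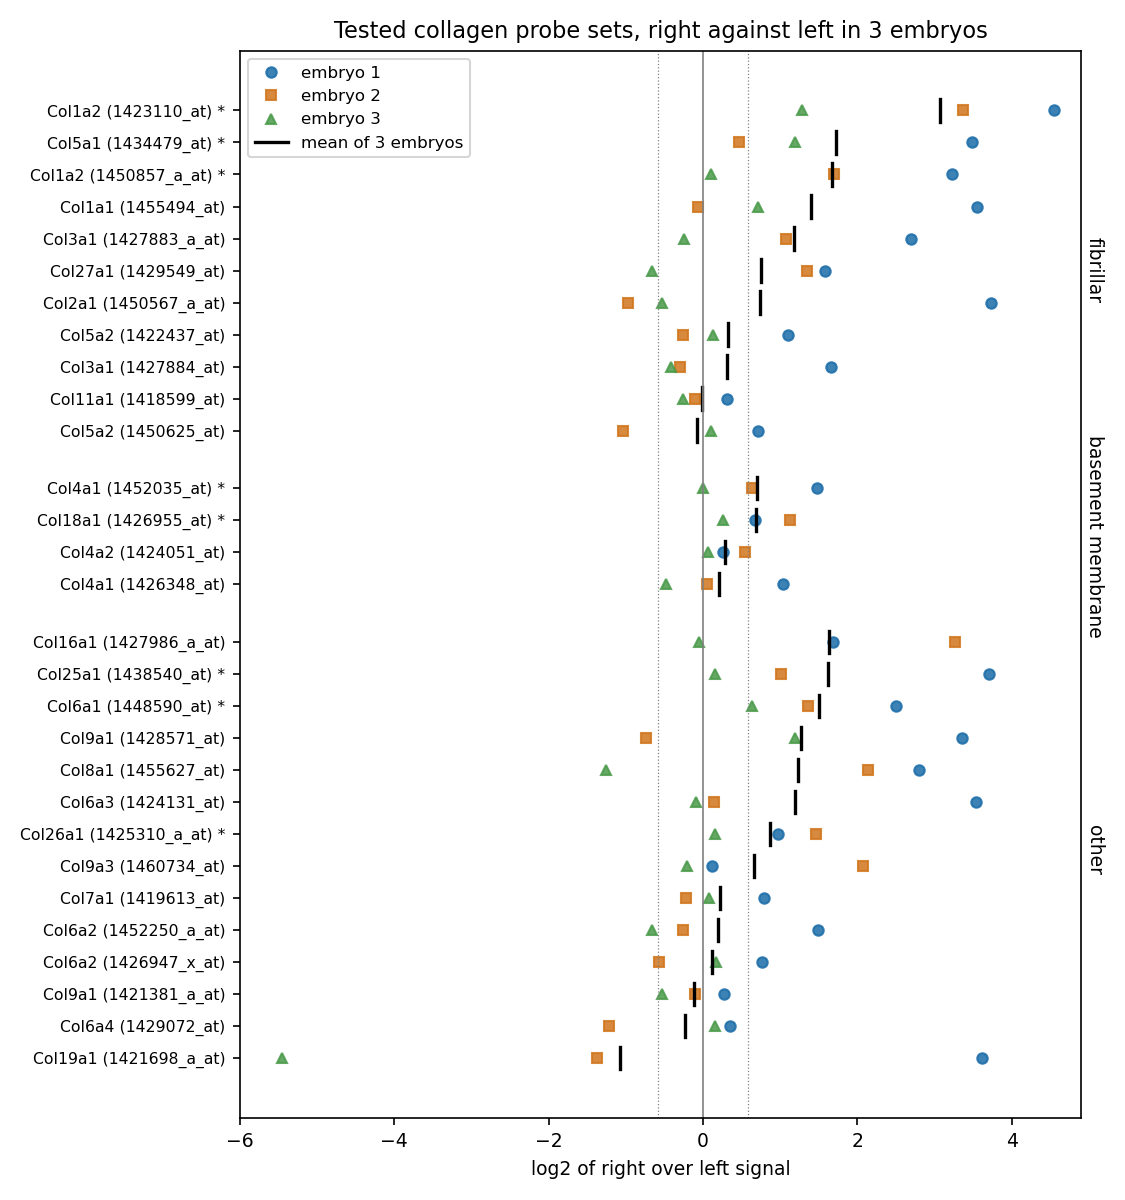
log2 of right over left signal (horizontal axis) in embryos 1, 2 and 3 (circles, squares, triangles) for the 29 tested collagen probe sets, with the mean as a bar and dotted lines at 0.58 on either side of 0. An asterisk marks the 8 that met the fold rule on the right, and embryo 1 lies above 0 in all 29 and embryo 3 in 16.

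The plot of ratios by embryo shows the order within each class. Averaged over embryos, 19 of the 23 tested genes lay above 0 and 4 below, again with 1 probe set a gene, 10 of the 23 having reached the limit on the right only. The median log2(R/L) over genes was 0.97 for the 8 fibrillar genes, 0.68 for the 3 basement membrane genes and 0.76 for the 12 others, and 0.01 over all tested genes. In embryos 1, 2 and 3 the fibrillar median was 2.96, 0.20 and −0.07, that of the basement membrane genes 0.67, 0.64 and 0.07, and that of the others 1.59, 0.58 and −0.07. Over all tested genes the median was 0.04 and 0.01 in embryos 1 and 2 and −0.002 in embryo 3. Without embryo 1, the medians were 0.41 over the 3 fibrillar genes still tested, 0.32 over 3 basement membrane genes and 0.30 over 10 others. The fibrillar median exceeded that of the basement membrane by 2.29 in embryo 1 and lay below it in the others, with differences of −0.43 and −0.14. The mean difference was 0.57 ± 1.50 (SD, n = 3; exact sign-flip permutation test, two-sided p = 1, where 0.25 is the smallest p that 3 embryos allow). It compares the genes that passed the limit, which 5 of the 8 fibrillar and 1 of the 3 basement membrane genes reached on the right only, and it cannot pass a threshold of 0.05.

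The 250 bases before the transcription start of 4 genes that met the fold rule, those with the largest mean ratios, are shown because they let the upstream regions of chains from different classes be set side by side. They are read 5′ to 3′ on the strand of the gene, from RefSeq on GRCm38.p6. Capitals mark every match to GGGCGG (a GC box, the site bound by Sp1 and its relatives) or CCAAT, on either strand (CCGCCC and ATTGG). The regions are chr6:4505368-4505617 on the plus strand for Col1a2, chr2:27886175-27886424 on the plus strand for Col5a1, chr3:130180595-130180844 on the plus strand for Col25a1 and chr10:76726045-76726294 on the minus strand for Col6a1.
Col1a2: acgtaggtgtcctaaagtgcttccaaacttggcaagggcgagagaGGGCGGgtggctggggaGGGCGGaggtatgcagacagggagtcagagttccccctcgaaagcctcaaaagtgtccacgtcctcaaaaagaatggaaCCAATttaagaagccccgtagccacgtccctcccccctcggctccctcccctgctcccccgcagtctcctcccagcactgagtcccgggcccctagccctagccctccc
Col5a1: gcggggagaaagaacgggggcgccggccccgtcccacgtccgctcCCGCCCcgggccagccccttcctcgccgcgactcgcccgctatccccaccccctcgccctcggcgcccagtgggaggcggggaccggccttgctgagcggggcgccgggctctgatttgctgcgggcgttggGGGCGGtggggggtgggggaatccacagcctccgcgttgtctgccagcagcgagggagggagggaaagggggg
Col25a1: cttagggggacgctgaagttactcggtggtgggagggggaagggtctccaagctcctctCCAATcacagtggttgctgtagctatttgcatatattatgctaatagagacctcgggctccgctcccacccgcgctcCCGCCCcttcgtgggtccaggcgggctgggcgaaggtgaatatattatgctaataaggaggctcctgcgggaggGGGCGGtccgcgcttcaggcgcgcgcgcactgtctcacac
Col6a1: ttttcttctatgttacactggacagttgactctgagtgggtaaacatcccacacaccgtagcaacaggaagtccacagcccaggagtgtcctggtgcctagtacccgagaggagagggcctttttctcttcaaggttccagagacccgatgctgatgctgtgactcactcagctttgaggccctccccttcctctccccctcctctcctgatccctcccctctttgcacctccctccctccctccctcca

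The 4 sequences have GC contents of 62%, 76.4%, 60.4% and 56%. Col1a2 and Col25a1 each hold 2 GC boxes and 1 CCAAT match, Col5a1 holds 2 GC boxes, and Col6a1 holds neither motif in this window. Promoter sequences were at hand for 33 of the 42 collagen genes (36 windows) and for 6 of the 7 genes that met the fold rule. A GC box was present in 21 of the 36 collagen windows (58.3%), against 32.7% of all 32851 windows of the same length, CCAAT in 13 (36.1%, against 33.9%), and TATAAA, or TTTATA on the other strand, in 5 (13.9%, against 12.4%). Among the 6 genes that met the rule, 4 hold a GC box, 4 hold CCAAT and 0 hold TATAAA. A match to 1 of these motifs cannot be a match to another. These are matches of letters only.

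Type I collagen is the main fibrillar collagen of skin, bone and tendon, built of chains encoded by Col1a1 and Col1a2. The probe set 1450857_a_at of Col1a2 read 882, 292 and 740 in the left pools of embryos 1, 2 and 3, and 8264, 946 and 793 in their right partners. Right exceeded left in each embryo, 9.37-fold, 3.23-fold and 1.07-fold, although the ranges of left and right overlap. Its mean log2(R/L) was 1.67 ± 1.56 (SD, n = 3 embryos; 95% interval by limma 0.61 to 2.74, adjusted p = 0.974). The other tested probe set of Col1a2, 1423110_at, read 65.6 and 1535, 10.0 and 103, and 67.5 and 164 on the left and right of embryos 1, 2 and 3, with all 3 right pools above all 3 left pools. The share of all tested probe sets with sides that separate so, here and for genes below, was not counted. The mean of 1423110_at was 3.07 ± 1.66 (n = 3), and it was the only fibrillar probe set beyond 0.58 in all 3 embryos, but 5 of its 6 signals are under 200. Both Col1a2 probe sets met the fold rule.

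Col1a1, the partner chain, did not meet it with its tested probe set. Its probe set 1455494_at read 86.0, 106 and 62.5 in the left pools and 1004, 102 and 103 in the right pools, a mean log2(R/L) of 1.40 ± 1.90 (n = 3). Only the right pool of embryo 1 passed 200, and in embryo 2 the sides differed by −0.06. The other Col1a1 probe set, 1423669_at, stayed under the limit with signals of 3.06 to 43.5 and was not tested. Its ratios of 3.83, 0.84 and 0.12 would have met the fold rule.

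Type III collagen, encoded by Col3a1, is laid down together with type I in soft tissue. Its probe set 1427883_a_at was above 200 in all 6 pools and read 517 and 3349, 276 and 580, and 518 and 437 on the left and right of embryos 1, 2 and 3. Right was higher in embryos 1 and 2 and lower in embryo 3 (2.70, 1.07 and −0.24), so the fold rule was not met, with a mean of 1.17 ± 1.47 (n = 3; adjusted p = 0.974 by limma, unadjusted 0.0308). The second probe set of Col3a1 had a mean of 0.32 ± 1.16, with right higher in embryo 1 only.

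The type V chains encoded by Col5a1 and Col5a2 are minor partners in type I fibrils and set their diameter. Col5a1 (1434479_at) read 18.2 and 205, 63.2 and 87.4, and 22.9 and 52.4 on the left and right of embryos 1, 2 and 3, a mean of 1.72 ± 1.58 (n = 3). It met the fold rule but passed the limit of 200 narrowly and in 1 pool, and with signals under 200 raised to 200 its mean was 0.01. A second Col5a1 probe set lay just under the limit, with a highest signal of 193, and had ratios of 1.98, −0.23 and 0.08. Col5a2 (1422437_at) read 480 and 1028, 504 and 421, and 198 and 217, a mean of 0.32 ± 0.70, and its other probe set averaged −0.07 ± 0.89.

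Of the fibrillar collagens known from cartilage, Col2a1 and Col27a1 passed 200 in 1 pool, the right one of embryo 1, at 217 and 210, and Col11a1 there only at 242. Col2a1, the main collagen of cartilage, read 16.4, 18.9 and 26.7 in the left pools and 217, 9.62 and 18.5 in the right pools of embryos 1, 2 and 3, and the mean of 0.74 ± 2.60 (n = 3) combines 1 ratio above 0 with 2 below. Col27a1 averaged 0.76 ± 1.23, while its second probe set, just under the limit with a highest signal of 197, averaged −1.05 ± 1.42. The mean of Col11a1 was −0.02 ± 0.29. The remaining fibrillar genes Col5a3, Col11a2 and Col24a1 stayed under the limit, with highest signals of 101, 70.0 and 85.3.

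Col4a1 and Col4a2 encode the chains of the common type IV network and lie head to head on chromosome 8. Col4a1 (1452035_at) was well above the limit in every pool, at 1106, 1384 and 1887 in the left pools and 3067, 2151 and 1892 in the right pools of embryos 1, 2 and 3. The 3 right pools lay above the 3 left pools, the highest left pool and the lowest right pool being those of embryo 3, where the sides were equal within 1.002-fold. The mean was 0.70 ± 0.74 (n = 3; 95% interval by limma 0.12 to 1.28, adjusted p = 0.974), which met the fold rule. The second Col4a1 probe set read 285 and 583, 447 and 465, and 376 and 271, with a mean of 0.20 ± 0.76, and did not. Col4a2 read 418 and 499, 394 and 575, and 301 and 315, higher on the right in all 3 embryos by 0.26, 0.54 and 0.07, and stayed short of the rule at a mean of 0.29 ± 0.24.

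Col18a1 encodes a basement membrane collagen with heparan sulfate chains, from which endostatin is cut. Its probe set 1426955_at read 199 and 316, 128 and 279, and 176 and 211 on the left and right of embryos 1, 2 and 3, with no overlap between the sides and the largest ratio in embryo 2. It reached 200 on the right only, so it was tested through the side where it was higher. The mean was 0.68 ± 0.43 (n = 3; 95% interval by limma −0.12 to 1.49). Col4a3 to Col4a6, the chains of specialised basement membranes such as that of the kidney glomerulus, and Col15a1 did not reach 200 in any pool, with highest signals of 73.3 for Col4a3, 33.2 for Col4a4, 106 for Col4a5, 86.0 for Col4a6 and 61.4 for Col15a1.

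**Figure D3:**
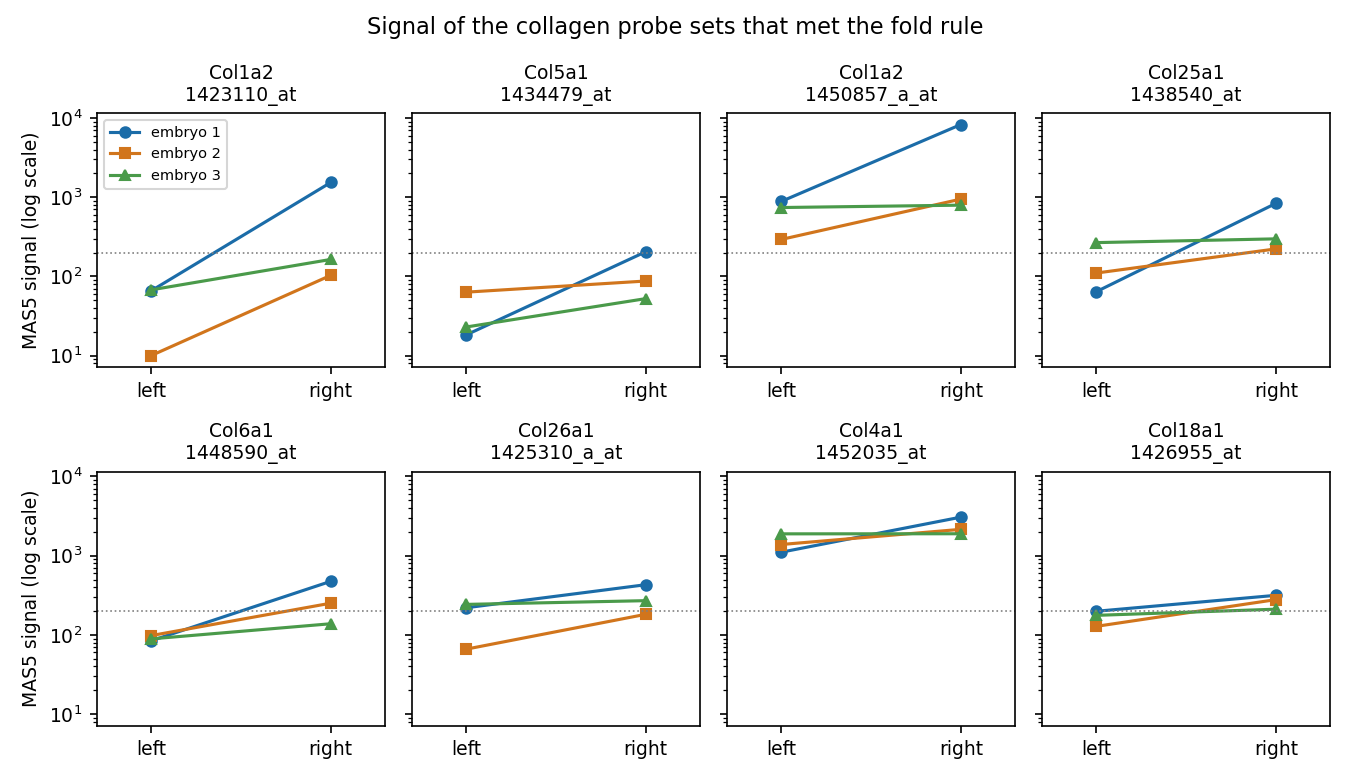
MAS5 signal (vertical log axis) on the left and right in embryos 1, 2 and 3 (circles, squares, triangles joined by lines) for the 8 collagen probe sets meeting the fold rule. A dotted line stands at 200. Every line rises or stays level from left to right, most steeply in embryo 1 for both Col1a2 probe sets, Col5a1, Col25a1, Col6a1 and Col4a1, and in embryo 2 for Col26a1 and Col18a1.

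Among the other collagens, Col6a1 had the most even ratios of the genes with a mean beyond 1. It encodes a chain of type VI collagen, whose beaded filaments lie around cells in most connective tissues. The signal was 84.1, 97.9 and 89.0 in the left pools and 474, 251 and 138 in the right pools of embryos 1, 2 and 3, so that the sides did not overlap, as the plot of signals shows. Col6a1 reached 200 on the right only, so it was tested through the side where it was higher. How many of all tested probe sets have sides that do not overlap was not counted. The mean was 1.50 ± 0.94 (n = 3; 95% interval by limma 0.38 to 2.61, adjusted p = 0.974), and 0.53 with signals under 200 raised to 200. Its partner chain Col6a3 read 83.3 and 965, 315 and 347, and 271 and 254, with ratios of 3.54, 0.14 and −0.09 and a mean of 1.19 ± 2.03.

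Col25a1 encodes a transmembrane collagen that neurons make and that motor axons need to innervate muscle. It read 64.0, 110 and 267 in the left pools and 835, 222 and 298 in the right pools. Ratios of 3.71, 1.01 and 0.16 gave a mean of 1.63 ± 1.85 (n = 3; 95% interval by limma 0.24 to 3.01, adjusted p = 0.974). The left pools ranged from 64.0 to 267 and overlapped the right pools, and it is the left pool of embryo 1 that was lowest of all 6. Skeletal muscle genes, described below, were also high in the right pool of embryo 1. Which cells gave the Col25a1 signal was not tested.

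Col26a1, a secreted collagen known from testis and ovary, read 220 and 430, 66.0 and 182, and 243 and 270 on the left and right of embryos 1, 2 and 3, a mean of 0.86 ± 0.66 with the largest ratio in embryo 2 (1.46). Col16a1, which sits on fibrils, was also furthest apart in embryo 2: it read 118 and 381, 21.2 and 203, and 76.0 and 73.3, a mean of 1.63 ± 1.66 that missed the fold rule because embryo 3 lay at −0.05. Col8a1, a short-chain collagen of vessels and the cornea, read 34.9 and 243, 3.03 and 13.4, and 59.2 and 24.8, a mean of 1.23 ± 2.18. Its other 2 probe sets stayed under the limit, with highest signals of 188 and 95.0, and averaged −1.14, left higher in all 3 embryos, and −0.84. The remaining 6 tested genes of this class (Col6a2, Col6a4, Col7a1, Col9a1, Col9a3 and Col19a1) did not meet the rule, with means between −1.07 and 0.66 by the brightest probe set. The extremes were Col19a1, whose ratios of 3.61, −1.37 and −5.45 rest on signals from 1.33 to 294, and Col9a3, at 0.12, 2.07 and −0.20.

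Probe sets of the same gene and genes that neighbour each other had unequal ratios. Of 6 genes with more than 1 tested probe set, 4 had means of the same sign and 2 of opposite sign, Col5a2 (0.32 and −0.07) and Col9a1 (−0.12 and 1.27). Of the pairs of neighbouring collagen genes with both members tested, which were chosen after their values were seen, Col4a1 and Col4a2 had means of 0.70 and 0.29, with transcription starts 21 bases apart on opposite strands and RefSeq windows, here 250 bases before to 50 after each start, that share 78 bases. The means were 1.17 and 0.32 for Col3a1 and Col5a2, 0.19 and 1.50 for Col6a2 and Col6a1, and −0.12 and −1.07 for Col9a1 and Col19a1.

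The genes that process collagen chains inside the cell had a median near 0. Of 23 genes for hydroxylation, folding and export, 16 were tested with a median log2(R/L) of 0.03 (0.32, −0.05 and 0.01 in embryos 1, 2 and 3). The fold rule was met by 0 of the 16 on the right, against 2.08% of all tested genes, and by 1 on the left, against 1.29%. That gene was Plod2, a lysyl hydroxylase, at 490, 415 and 376 in the left pools and 197, 275 and 316 in the right pools, a mean of −0.72 ± 0.54 (n = 3; adjusted p = 0.974 by limma). The summed signal of the 16 ran from 19990 to 21710 in left pools and from 20670 to 22280 in right pools. P4hb alone gave 6621 to 8096 of it, so the sum says little of the weaker genes. Serpinh1, the chaperone dedicated to procollagen and named here after its values were seen, read 676 and 2726, 1633 and 1525, and 1192 and 1200, so that the sides differed in embryo 1 (2.01) and hardly in the others (−0.10 and 0.01).

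Outside the cell, 5 of 13 genes for procollagen cleavage and cross-linking were tested (median −0.21), 5 of 11 collagen receptors (0.06) and 6 of 12 genes of collagen degradation (0.16). The fold rule was met by 0 of these 16 in either direction, against 2.08% of all tested genes on the right and 1.29% on the left. At such shares, 0 among so few genes is no contrast with the collagens. In embryo 1 alone the medians of these lists were 0.055, 0.508 and 0.174. Itga1, the alpha chain of a collagen-binding integrin, had an unadjusted p of 0.0315 by limma (adjusted 0.974) with ratios of 2.37, 3.49 and −0.08.

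Proteins that bind collagen fibrils gave values nearer to those of the fibrillar collagens. Of 16 proteoglycans and glycoproteins, 9 were tested with a median of 1.09 (1.85, 0.67 and 0.06 in embryos 1, 2 and 3), and 4 had reached the limit on the right only. The fold rule was met by 3 on the right and 0 on the left, against 2.08% and 1.29% of all tested genes. All 3 were among the 4 that had reached the limit on the right only. The 3 were the small leucine-rich proteins Fmod (4.57 ± 2.43) and Ogn (3.41 ± 3.22), each above 200 only in the right pool of embryo 1, and the microfibril protein Fbn2, which read 184 and 387, 71.4 and 169, and 36.5 and 70.6 and was nearly level across embryos (1.07, 1.24 and 0.95). Decorin (Dcn), which coats type I fibrils, read 5.73 and 532, 34.1 and 205, and 234 and 209, with ratios of 6.54 and 2.59 in embryos 1 and 2 that rest on left signals far under 200, and −0.16 in embryo 3. The laminins, nidogens and other partners of type IV collagen in the basement membrane had 6 of 11 genes tested, a median of 0.08 (0.39, 0.16 and 0.13), and 0 that met the rule in either direction. Beside 2.08% and 1.29% of all tested genes, 0 of 6 says little.

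**Figure D4:**
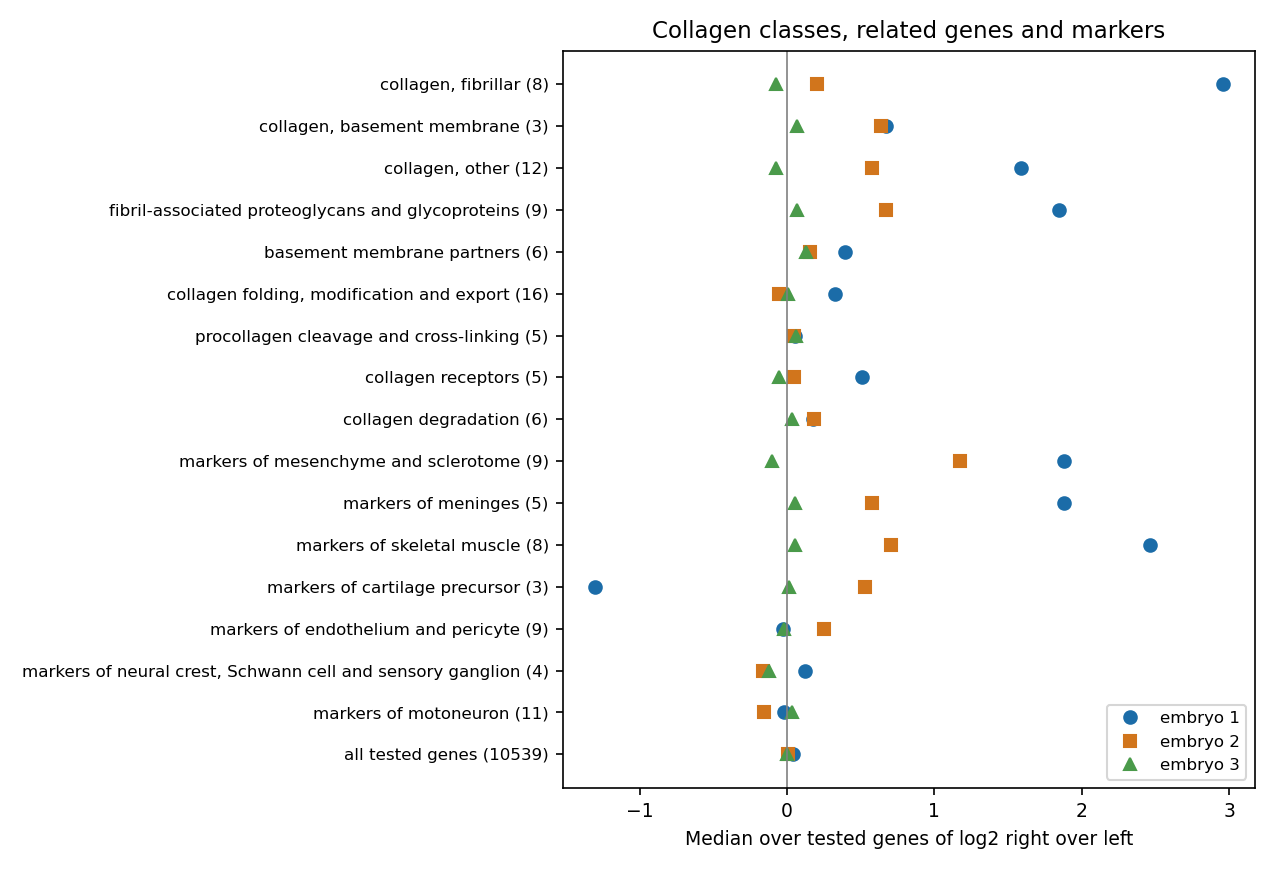
Median over tested genes of log2 right over left (horizontal axis) in embryos 1, 2 and 3 (circles, squares, triangles) for the collagen classes, related gene lists, cell type markers and all tested genes, with the number of tested genes in brackets. The fibrillar and other collagens and the fibril-associated protein, mesenchyme, meninges and skeletal muscle lists lie above 1.5 in embryo 1 and within 0.11 of 0 in embryo 3.

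The list medians of mesenchyme, meninges and skeletal muscle markers moved with the collagens in embryo 1, as the plot of medians by list shows. The part of these markers in the collagen values was not tested. The medians over tested genes of cartilage precursors, of endothelium and pericytes, and of neural crest did not, at −1.31, −0.03 and 0.12 in embryo 1. That of cartilage precursors rests on Sox5, Sox6 and Sox9 alone. Of 17 mesenchyme and sclerotome genes, 9 were tested, 6 of which reached the limit on the right only, with a median of 1.19 (1.88, 1.17 and −0.10 in embryos 1, 2 and 3). Meox2, Fbln1 and Ccn2 met the fold rule on the right and 0 genes on the left, against 2.08% and 1.29% of all tested genes. Meox2 and Ccn2 had reached the limit on the right only. The summed signal of the 9 genes ran from 2170 to 2350 in left pools and from 1993 to 9423 in right pools. Pdgfra, a receptor of mesenchymal cells, read 65.9, 6.63 and 4.52 in the left pools and 892, 112 and 2.44 in the right pools, while the sclerotome factors Pax1, Pax9 and Nkx3-2 stayed under 200 in all 6 pools, as did Prrx2, Twist1, Twist2, Meox1 and Foxc2.

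Skeletal muscle genes were also high in the right pool of embryo 1. Of 12, 8 were tested, all 8 reached the limit on the right only, and the median was 1.14 (2.46, 0.70 and 0.05), with sums of 314 to 486 on the left and 413 to 4750 on the right. Of the 8, Myog and Myl4 met the fold rule on the right, against 2.08% of all tested genes. Actc1, cardiac actin, read 2236 in the right pool of embryo 1 and at most 140 in the other 5. Of 9 genes of the meninges, 5 were tested with a median of 0.94 (1.88, 0.58 and 0.05) and 1 met the rule on the right, against 2.08% of all tested genes. It was Zic1, which is also a gene of the dorsal cord and read 72.6 and 1745, 24.5 and 693, and 138 and 150. Foxc1 belongs to this list and to that of mesenchyme. In embryo 1 the ratios were 4.59 for Zic1, 2.30 for Foxd1 and 1.88 for Foxc1, each of which reached the limit on the right only. Crabp2 and Aldh1a2 hardly differed there, at 0.20 and −0.17. The sums were 9511 to 10350 on the left and 10670 to 12850 on the right, most of it from Crabp2.

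Markers of endothelium and pericytes, which are sources of type IV collagen, also had a median near 0. Of 14 genes, 9 were tested with a median of 0.11 (−0.03, 0.25 and −0.02), and the sums were 2979 to 3738 on the left and 2725 to 4627 on the right. The fold rule was met by 0 of the 9 in either direction, against 2.08% of all tested genes on the right and 1.29% on the left. The endothelial genes Cdh5, Tek, Tie1 and Emcn stayed under 200 in all pools. Cartilage precursor genes were represented by Sox5, Sox6 and Sox9 (median 0.19; −1.31, 0.53 and 0.01; sums 391 to 979 on the left and 336 to 997 on the right), with Acan, Matn1, Matn4, Hapln1 and Cnmd under the limit. From signals under 200, the embryo 1 ratios were 1.45 for Acan, 4.49 for Matn4 and 2.67 for Hapln1. Those of Matn1 and Cnmd were −0.25 and −0.93. Of 8 genes of neural crest, Schwann cells and sensory ganglia, 4 were tested, with a median of 0.03 and 0 that met the rule. Beside the shares of 2.08% and 1.29% of all tested genes, a count of 0 in lists this short says little.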

How the data were processed

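The authors laser-captured the GFP-positive region on each side of the cervical cord, amplified the RNA, labelled it with biotin and hybridised 6 Affymetrix Mouse 430 2.0 arrays. The deposited values are MAS5 signal intensities on a linear scale, which the authors computed with Affymetrix Expression Console (version not stated). The rule of the study also asked for a present call in at least 1 pool of each embryo. Detection calls were not analysed here, so that filter was not repeated, and a member that reached 200 in a single pool, such as Col5a1, was not checked against it. No further scaling was applied, and all value columns were matched to samples.

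Of 45101 rows, 64 are controls. Genes were named from the annotation of the array where a probe set has 1 gene (34945 probe sets). All 42 collagen symbols are unchanged in RefSeq. Probe sets with a highest signal of at least 200 (21853) were tested. Signals were taken to log2 with nothing added, and differences were fitted by limma 3.58.1 under R 4.3.3 on side plus embryo, with a variance trend and Benjamini-Hochberg adjustment over all tested probe sets (threshold 0.05). The pools of an embryo were paired since 1 animal and the same sections gave both. After removal of the side means they correlated at 0.241, 0.215 and 0.495 in embryos 1, 2 and 3. A gene was represented by its brightest tested probe set, with the mean taken over the 6 arrays. Levels of different probe sets were not compared. The script was tested on simulated data with known changes. Figures were drawn with Python 3.11.15 and matplotlib 3.10.9.

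The members and all gene lists were chosen with earlier results of these data known, so no p was adjusted over a list alone. Named in full are tested fibrillar and basement membrane collagens, and other collagens that met the fold rule, had an unadjusted p under 0.05 or were among the 5 largest mean ratios. Members of related lists are named where they met the fold rule or had p under 0.05. Genes named beyond this (Serpinh1, neighbouring pairs, single markers and untested members) were chosen after their values were seen.

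The embryos are of 1 litter, so p-values do not reach beyond it, and the number of arrays limits the precision. In limma, each variance is also drawn in part from the other probe sets (6.68 prior against 2 residual degrees of freedom). Its p-values and intervals therefore do not measure the spread between these 3 embryos alone. An interval can be narrower than the printed SD implies. Settings varied were quantile normalization, median scaling, 50 added, low signals raised to 200, other signal limits, no term for embryo, no variance trend, each embryo left out, stricter fold rules, the mean over probe sets of a gene, and type IV chains alone as the basement membrane class.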

Additional observations from a re-analysis of the deposited data

How the results depend on the processing

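The count of collagen probe sets that met the fold rule on the right, 8 of 29, depended most on low signals and on embryo 1. It was 2 with signals under 200 raised to 200 (6.9% of 29, against 0.485% of all tested probe sets) and 2 of 10 where each side had to average 200 (against 0.798%), Col1a2 and Col4a1 in both cases. It was 4 of 12 when the highest signal had to reach 500 (against 0.968%), 18 of 82 with no signal limit (against 6.23%), 2 with a change beyond 0.58 in all 3 embryos (Col1a2 and Col6a1; against 0.384%) and 5 with a 2-fold limit (against 0.874%). Leaving out 1 embryo gave 1 to 11: 1 of 19 without embryo 1, 5 of 27 without embryo 2 and 11 of 28 without embryo 3, where 0.695%, 0.888% and 4.66% of all tested probe sets met the rule. Quantile normalization and median scaling gave 7 each and 50 added gave 6, and each of these settings lost 2 of the 8 probe sets. With quantile normalization, Col4a1 and Col18a1 of the basement membrane no longer met the rule, while Col16a1 did. On the left, the count of 0 became 1 with no signal limit and 0 to 1 with an embryo left out.

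Under an adjusted p of 0.05 the count of 0 was 0 to 2 with an embryo left out. The 2 were the Col1a2 probe sets without embryo 2 (adjusted p by limma 0.0145 and 0.00087), although their ratios in embryos 1 and 3 were 4.55 and 1.28, and 3.23 and 0.10. With 1 residual degree of freedom, that fit takes the variance almost wholly from the other probe sets (96.9 prior degrees of freedom, against 6.68 with all embryos). The smallest adjusted p of a collagen ranged from 0.00087 to 1 over the alternatives. The count with an unadjusted p under 0.05, 6, was 2 with low signals raised to 200, 10 with no limit, 3 with a limit on each side and 2 to 8 with an embryo left out. Without the replicate block, that is with no paired term for embryo, it was 4, with 0 past the adjusted threshold.

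The class medians of the mean over embryos stayed above 0 under every alternative run. In embryo 3 alone the fibrillar and other medians were −0.07 each. Alternatives that kept embryo 1 and the limit also kept members that reached it on the right only. The sign of the medians is therefore no evidence for a difference by itself. The median of the basement membrane genes (0.68) ranged from 0.32 to 0.90 with an embryo left out. The difference between fibrillar and basement membrane medians (0.57) turned to −0.20 with low signals raised to 200 and to −0.14 with no limit, and the cause was not tested. The median of the fibrillar genes (0.97) ranged from 0.20, with low signals raised to 200, to 1.6, without embryo 3, and that of the others (0.76) from 0.19, with no limit, to 1.23, with a limit of 500. Of the single genes, 8 changed the sign of their mean with an embryo left out (Col5a2, Col6a2 and Col7a1 without embryo 1, Col6a4 and Col9a3 without embryo 2, Col9a1 and Col19a1 without embryo 3, and Col11a1 without either of the last 2) and 2 under another alternative (Col9a1 and Col11a1), 0 of which met the fold rule. Without embryo 1, Col6a3 fell to 0.02 from 1.19, Col3a1 to 0.41 from 1.17, Col25a1 to 0.59 from 1.63 and Col1a2 to 0.90 from 1.67, and Col6a2 turned to −0.46 from 0.19. Without embryo 3, Col19a1 turned to 1.12 from −1.07. With all embryos kept, 142 of 145 values of single genes under the alternatives moved by less than 1 SD over the embryos. The 3 that moved more were Col5a1 (0.01) and Col6a1 (0.53) with low signals raised to 200, and Col9a1 (1.27) with a limit of 500, where another of its probe sets stands for the gene. The count says little of stability. A change of signal limit leaves a gene's value as it was unless another probe set stands for it, and the SD is wide for many genes. With no limit Col5a1 moved to 0.61 from 1.72, which is less than 1 SD.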
